A study of Mus musculus with 20 samples.

Results

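The transcripts of 8 interferon regulatory factor (IRF) genes, Irf1, Irf2, Irf3, Irf4, Irf5, Irf7, Irf8 and Irf9, were followed in mouse bone marrow-derived macrophages (BMDMs) given fractions of inflamed airway fluid. The genes were taken by symbol, 8 of the 78409 genes listed in the expression matrix, and each symbol was carried by 1 entry. After exposure to any of the 4 airway-fluid fractions Irf7 and Irf1 were higher than in PBS, at 4.03 to 5.63 times and 2.17 to 3.29 times the PBS level, and Irf8 was lower. The Irf8 decrease with the RNY1-/- protein-rich fraction did not pass in 4 of 8 fits that left out a library. Irf2 was higher with the protein-rich fractions, Irf4 was at the limit of detection, and between the donor genotypes of the fluid 6 of 7 tested members were called in EVFx (52.1% of all genes) and 0 of 7 in ProteinFx (5.57% of all genes). These counts depended on the processing. With GC and length trends removed 1 was called in EVFx, and with either pair of RNY1-/- ProteinFx libraries alone 2 were called in ProteinFx.

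IRFs are transcription factors that share a DNA-binding domain and recognise repeats of a GAAA-type half-site, the interferon-stimulated response element (ISRE). Irf3 and Irf7 are activated by phosphorylation downstream of nucleic acid sensors and turn on interferon beta and alpha genes, and secreted interferon then acts through its receptor and the ISGF3 complex, of which Irf9 is a subunit, and this raises Irf7 in turn. Irf1 is induced by interferon gamma and NF-kappa B, Irf2 competes with it for the same sites, Irf5 serves Toll-like receptor signalling through Myd88, and Irf4 and Irf8 bind composite sites with the ETS factor PU.1. Transcript levels do not show phosphorylation, so Irf3 and Irf5 activity was not measured here.

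The recipient cells in every group were wild-type C57BL/6J macrophages from female mice, grown from bone marrow in L929-conditioned medium to day 7 and plated at 200000 cells per well. Bronchoalveolar lavage fluid came from ovalbumin-challenged mice of either genotype, RNY1+/+ or RNY1-/-. The latter carry a CRISPR deletion of the Y RNA gene. The fluid was separated by size-exclusion chromatography (SEC). The separated fractions were kept at 4°C for 5 days before use. The extracellular vesicle fraction (EVFx, SEC fractions 1 to 4) was given at 35000000 particles per µL, and the protein fraction (ProteinFx, SEC fractions 9 to 20) at 0.75 µg per µL. With the PBS control this gave 5 groups of 4 libraries, PBS, RNY1+/+ EVFx, RNY1-/- EVFx, RNY1+/+ ProteinFx and RNY1-/- ProteinFx. The genotype is that of the fluid donors, so no transcript in these libraries checks it. The labels do not tell if replicate libraries stand for separate pools of fluid, mice or wells, so p-values measure the spread between these samples, which may be technical.

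Library totals ran from 2510005 to 8277366 deduplicated counts, with a median of 5456425. All 7 macrophage markers checked, Adgre1, Cd68, Csf1r, Itgam, Lyz2, Mertk and Fcgr1, were above 3 counts in every library, while the T cell markers Cd3d, Cd3e, Cd3g and Trac were at or under 3 counts in every library. The fibroblast markers Col1a1, Col1a2 and Col3a1 summed to 21.5 to 48.2 CPM in PBS, 20.6 to 36.7 in RNY1+/+ EVFx, 10.3 to 19.3 in RNY1-/- EVFx, 17.1 to 24.8 in RNY1+/+ ProteinFx and 9.56 to 24.2 in RNY1-/- ProteinFx, and their part in the results was not tested. The libraries of RNY1-/- ProteinFx fell into pairs. Replicates 1 and 2 lay 25.9 apart in expression distance and replicates 3 and 4 lay 38.9 apart, while libraries of different pairs were separated by 49.3 to 60.6. The IRF genes followed this split: in RNY1-/- ProteinFx both of replicates 1 and 2 exceeded both of replicates 3 and 4 for Irf1, Irf5, Irf7, Irf8 and Irf9, and the same order held for these 5 genes in RNY1-/- EVFx and in PBS. Levels of these genes also moved with depth. After the group means were subtracted, Pearson's r between log2 CPM (a count scaled to the total of its library) and log2 library total over the 20 libraries was 0.69 for Irf1, 0.68 for Irf5, 0.68 for Irf7, 0.77 for Irf8 and 0.71 for Irf9, but 0.40 for Irf3 and -0.11 for Irf2. These points share their groups and libraries, and the part of depth or of the replicate split in the results was not tested.

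Promoter sequence was read for the members from RefSeq on GRCm38.p6, 250 bases before each annotated start, which gave 11 starts for the 8 genes. Both strands were searched for an ISRE core (GAAANNGAA), the STAT-binding gamma-activated sequence (GAS, TTCNNNGAA) and the kappa B motif, counting once a place that matches on both strands. The ISRE core was found in 1 of the 11 windows, against 7.13% of 32851 promoters, GAS in 3 of 11, against 7.02%, and kappa B in 2 of 11, against 7.25%. The first windows of Irf1, Irf7, Irf2 and Irf8 are shown because these genes differed between groups in contrasting ways, in lower case with motif matches in capitals.
Irf1, higher with every fraction, chr11:53769764-53770013, plus strand: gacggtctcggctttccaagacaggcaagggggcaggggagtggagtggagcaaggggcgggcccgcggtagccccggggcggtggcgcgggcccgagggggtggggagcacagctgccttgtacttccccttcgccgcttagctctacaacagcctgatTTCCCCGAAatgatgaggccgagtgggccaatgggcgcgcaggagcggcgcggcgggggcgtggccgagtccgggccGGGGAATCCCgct
Irf7, higher with every fraction, chr7:141266425-141266674, minus strand: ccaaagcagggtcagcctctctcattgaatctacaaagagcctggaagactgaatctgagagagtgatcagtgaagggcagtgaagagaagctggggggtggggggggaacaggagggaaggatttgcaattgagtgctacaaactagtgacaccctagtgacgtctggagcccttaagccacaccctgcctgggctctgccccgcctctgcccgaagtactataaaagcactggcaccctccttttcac
Irf2, higher with ProteinFx, chr8:46739495-46739744, plus strand: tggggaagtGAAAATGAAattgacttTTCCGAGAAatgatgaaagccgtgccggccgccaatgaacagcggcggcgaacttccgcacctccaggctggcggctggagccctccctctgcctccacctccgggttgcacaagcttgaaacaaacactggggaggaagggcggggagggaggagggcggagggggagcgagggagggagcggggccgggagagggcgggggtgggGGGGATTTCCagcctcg
Irf8, lower with every fraction, chr8:120736108-120736357, plus strand: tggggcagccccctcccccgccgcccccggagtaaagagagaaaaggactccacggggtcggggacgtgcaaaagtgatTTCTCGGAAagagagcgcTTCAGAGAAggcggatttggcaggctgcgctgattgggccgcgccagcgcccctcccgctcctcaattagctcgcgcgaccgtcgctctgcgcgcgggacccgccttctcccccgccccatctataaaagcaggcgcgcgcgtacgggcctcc

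All windows shown lie directly upstream of a RefSeq start, and those of Irf2 and Irf7 also reach into the first bases of the gene as GENCODE draws it. In the Irf1 window a GAS match lay 90 to 82 bases before the start and a kappa B match 13 to 4 bases before it. The Irf2 window held an ISRE core 241 to 233 bases, a GAS match 224 to 216 bases and a kappa B match 17 to 8 bases before the start. The first Irf8 start had GAS matches 171 to 163 and 153 to 145 bases upstream. None of these letters was found before the Irf7 start, nor before those of Irf3, Irf4, Irf5 and Irf9. Both Irf9 windows lie inside the gene as GENCODE draws it, so the bases before its GENCODE start were not searched. Genes that rose and a gene that fell both carried GAS matches, and a match in this window is a description, not a binding site.

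**Figure D1:**
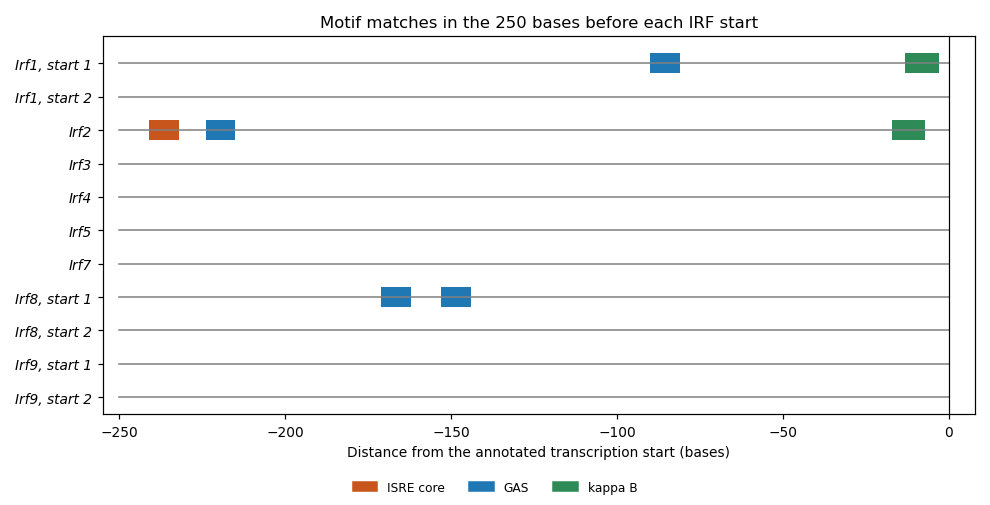
Places of ISRE core, GAS and kappa B matches before the 11 annotated starts of the 8 IRF genes, with the distance from the start in bases on the horizontal axis. Matches lie before 1 start each of Irf1, Irf2 and Irf8, and the 8 other windows hold none.

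The question of the first 4 comparisons was whether airway-fluid fractions change macrophage gene expression against PBS. Of the 8 members 7 passed the filter on low values and were tested, and Irf4 was not. A gene had to pass edgeR's filterByExpr and to average 3 CPM or more in the samples compared. With RNY1+/+ EVFx 4 of 7 passed an adjusted p of 0.05, where 44.5% of all 10797 genes tested did. Irf1, Irf7 and Irf9 were higher (21.7% of all genes) and Irf8 was lower (22.8%). With RNY1-/- EVFx 5 of 7 passed, against 58.3% of all genes, with Irf1, Irf7 and Irf9 higher (27.7% of all genes) and Irf3 and Irf8 lower (30.7%). With RNY1+/+ ProteinFx 6 of 7 passed, against 55.2%. Irf1, Irf2, Irf7 and Irf9 were higher there (25.9% of all genes), Irf3 and Irf8 lower (29.3%). With RNY1-/- ProteinFx 4 of 7 passed, against 35.7%: Irf1, Irf2 and Irf7 were higher (16.7%) and Irf8 was lower (19%). With shares this high among all genes, the number of members called is not read as a feature of the family. Differentially expressed genes (DEGs, a log2 fold change above 1 in size as well) made up 16.4%, 22.5%, 21.3% and 14.3% of all genes in the same order of groups, and numbered 2, 3, 3 and 2 of the 7 members: Irf1 and Irf7 in all 4 groups, and Irf8 with RNY1-/- EVFx and RNY1+/+ ProteinFx. The calls of Irf1 and Irf7 held in every alternative for all 4 groups. The 4 comparisons share their PBS libraries.

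**Figure D2:**
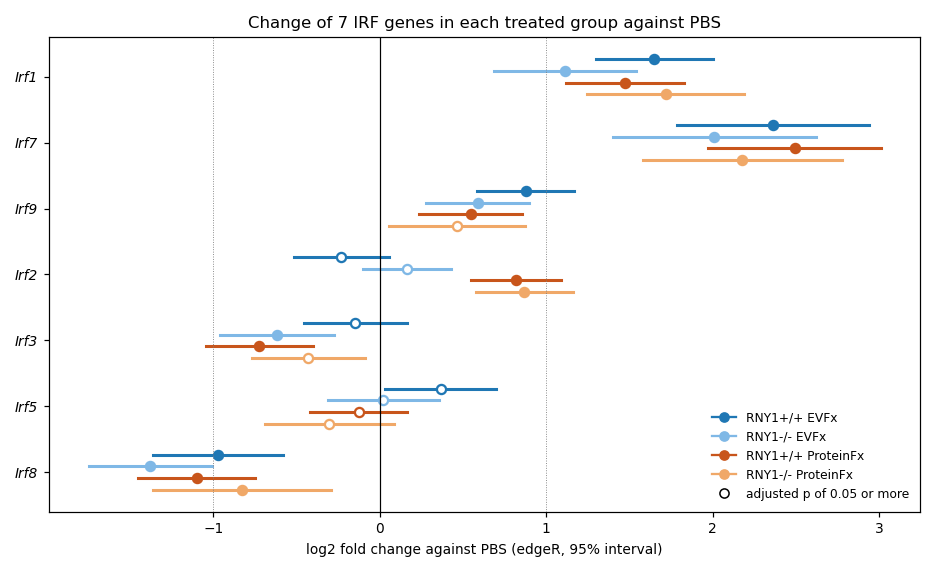
Log2 fold change of the 7 tested IRF genes in each treated group against PBS (edgeR), with bars for the 95% interval before adjustment and open points for an adjusted p of 0.05 or more. Irf1 and Irf7 lie above 1 in all 4 groups, Irf8 lies below 0 in all 4, and Irf2 is called in both ProteinFx groups and in neither EVFx group.

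Irf7 (ENSMUSG00000025498, chr7:141262706-141266481 in GRCm38, minus strand), the interferon-inducible amplifier of the type I interferon response, changed most. In PBS it was at 96.7, 91.9, 38.9 and 59.6 CPM in replicates 1 to 4. In RNY1+/+ EVFx it was at 366, 367, 237 and 338 CPM and in RNY1-/- EVFx at 295, 306, 167 and 215 CPM. In RNY1+/+ ProteinFx the values were 359, 357, 355 and 371 CPM, and in RNY1-/- ProteinFx 366, 375, 255 and 256 CPM. Every treated library exceeded every PBS library, and the RNY1+/+ ProteinFx libraries lay closest together, with a coefficient of variation of 2.08% against 18.9% to 38.2% in the other groups. The log2 fold changes against PBS were 2.36 (SE 0.26, adjusted p = 2.74e-05) for RNY1+/+ EVFx, 2.01 (SE 0.28, adjusted p = 0.000121) for RNY1-/- EVFx, 2.49 (SE 0.24, adjusted p = 6.18e-06) for RNY1+/+ ProteinFx and 2.18 (SE 0.27, adjusted p = 0.000189) for RNY1-/- ProteinFx. The genes whose log2 CPM tracked Irf7 most closely over the 20 libraries were Oas3, an oligoadenylate synthetase of the antiviral response (Pearson's r = 0.99), and Znfx1 (r = 0.99).

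Irf1 (ENSMUSG00000018899, chr11:53770014-53778374, plus strand), induced by interferon gamma and NF-kappa B, was at 40.6, 38.5, 24.7 and 38.1 CPM in PBS. It was at 113, 103, 83.5 and 95.8 CPM in RNY1+/+ EVFx and at 77.2, 78.2, 46.3 and 58.7 CPM in RNY1-/- EVFx. RNY1+/+ ProteinFx gave 95.3, 99.6, 86.2 and 71.7 CPM and RNY1-/- ProteinFx 147, 129, 77.3 and 94.2 CPM. No treated library reached down to the PBS range. Against PBS the log2 fold change was 1.65 (SE 0.16, adjusted p = 9.77e-06) with RNY1+/+ EVFx, 1.12 (SE 0.19, adjusted p = 0.000589) with RNY1-/- EVFx, 1.47 (SE 0.16, adjusted p = 2.14e-05) with RNY1+/+ ProteinFx and 1.72 (SE 0.21, adjusted p = 0.000193) with RNY1-/- ProteinFx. Dhx58, which encodes the RIG-I-like receptor LGP2 (r = 0.96), and the cytidine deaminase gene Apobec3 (r = 0.96) had the patterns most like it. Irf1 and Irf7 varied together over the 20 libraries, with r = 0.94.

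Irf9 (ENSMUSG00000002325, chr14:55603571-55610030, plus strand), the DNA-binding subunit of ISGF3, rose less. Its PBS values were 42.4, 41.4, 28.6 and 39.1 CPM. Values of 59.4, 67.6, 56.96 and 62.8 CPM in RNY1+/+ EVFx and of 52.3, 53.2, 43.0 and 44.8 CPM in RNY1-/- EVFx were all above the PBS range. RNY1+/+ ProteinFx gave 51.8, 46.6, 54.8 and 44.7 CPM, also above it, but RNY1-/- ProteinFx, at 59.5, 62.4, 38.4 and 40.1 CPM, overlapped PBS. The log2 fold changes were 0.88 (SE 0.13, adjusted p = 0.000269), 0.59 (SE 0.14, adjusted p = 0.0041) and 0.55 (SE 0.14, adjusted p = 0.00671) in the first 3 groups. With RNY1-/- ProteinFx the value was 0.47 (95% interval 0.06 to 0.88, adjusted p = 0.0694), which did not pass; it passed with DESeq2 (0.49, adjusted p = 0.043), with no filter (0.50, adjusted p = 0.032), with all 20 libraries in 1 fit (0.47, adjusted p = 0.0075), with GC and length trends removed (0.47, adjusted p = 0.0271) and with replicates 1 and 2 alone (0.71, adjusted p = 0.0329). With the replicate number as a block the RNY1-/- ProteinFx value passed as well (0.46, adjusted p = 0.00174). In 12 of 19 alternatives the RNY1-/- ProteinFx value did not pass, with values down to 0.17 and adjusted p up to 0.498. Only replicates 1 and 2 of RNY1-/- ProteinFx were above PBS. The others, at 38.4 and 40.1 CPM, lay inside the PBS range of 28.6 to 42.4 CPM. The call with RNY1-/- EVFx did not pass with total counts as the scaling (0.35, adjusted p = 0.0521). Psmb8 and Tapbp, of the immunoproteasome and of peptide loading on MHC class I, were most like Irf9 (r = 0.97 for both). Irf9 lies on the same strand as the overlapping gene Rnf31, and 12 of its 20 counts were not whole numbers, so reads shared with other features could have been split.

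Irf2 (ENSMUSG00000031627, chr8:46739732-46847458, plus strand), which competes with Irf1 at shared sites, separated the fractions. It was at 71.9, 72.1, 98.1 and 81.7 CPM in PBS, at 62.6, 69.4, 57.1 and 54.8 CPM in RNY1+/+ EVFx and at 84.2, 79.8, 72.5 and 70.5 CPM in RNY1-/- EVFx. In RNY1+/+ ProteinFx it was at 125, 138, 115 and 130 CPM and in RNY1-/- ProteinFx at 139, 129, 146 and 149 CPM, so each of these 8 libraries was above all 12 others. Against PBS Irf2 rose by a log2 fold change of 0.82 (SE 0.12, adjusted p = 0.000222) with RNY1+/+ ProteinFx and 0.87 (SE 0.13, adjusted p = 0.000784) with RNY1-/- ProteinFx. With RNY1+/+ EVFx the value was -0.23 (95% interval -0.51 to 0.05, adjusted p = 0.173) and with RNY1-/- EVFx 0.17 (-0.10 to 0.43, adjusted p = 0.258). The latter passed without PBS replicate 3 (0.28, adjusted p = 0.0152), and the former with total counts as the scaling (-0.41, adjusted p = 0.0215) and with GC and length trends removed (-0.31, adjusted p = 0.0133). Its closest companions were Bmp2k and the leukotriene receptor gene Cysltr1 (r = 0.98 for both), and it ran against Irf5, with r = -0.70.

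**Figure D3:**
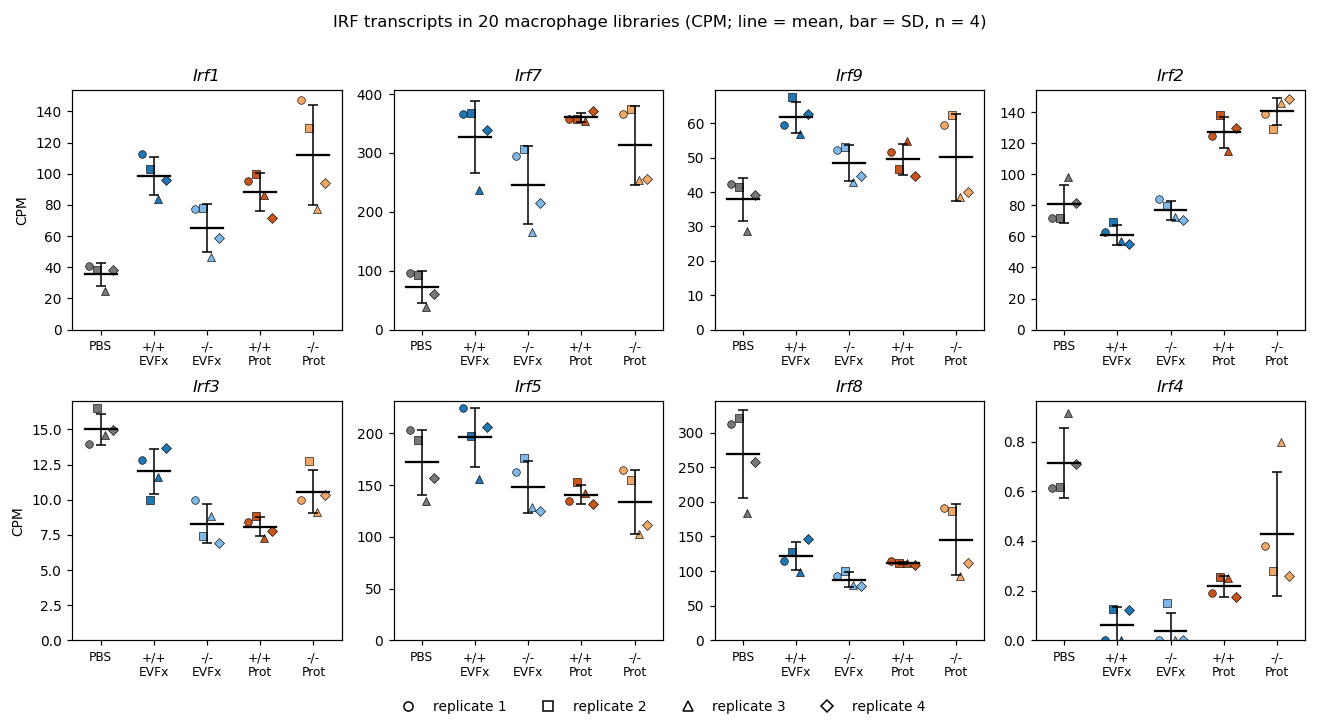
CPM of the 8 IRF genes in each of the 20 libraries, by group on the horizontal axis (+/+ and -/- for the RNY1 genotype of the fluid donors, Prot for ProteinFx), with the replicate number as the marker shape, the mean as a line and the SD as a bar (n = 4). Irf7 and Irf1 lie above PBS in all treated libraries, Irf2 is high in the 8 ProteinFx libraries, Irf8 is highest in PBS except for an overlap with RNY1-/- ProteinFx, and Irf4 stays under 1 CPM.

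Irf3 (ENSMUSG00000003184, chr7:44997648-45002848, plus strand), the constitutive factor that TBK1 phosphorylates, was the lowest of the tested members in counts, at 23 to 113 per library. It was at 13.9, 16.5, 14.6 and 14.9 CPM in PBS, 12.8, 10.01, 11.6 and 13.7 in RNY1+/+ EVFx, 9.98, 7.45, 8.87 and 6.90 in RNY1-/- EVFx, 8.42, 8.87, 7.29 and 7.81 in RNY1+/+ ProteinFx and 10.01, 12.7, 9.16 and 10.4 in RNY1-/- ProteinFx. All 16 treated libraries were below all PBS libraries in CPM. After TMM scaling (trimmed mean of M-values) it fell by 0.62 on the log2 scale with RNY1-/- EVFx (SE 0.16, adjusted p = 0.00571) and by 0.72 with RNY1+/+ ProteinFx (SE 0.15, adjusted p = 0.00171). The values of -0.15 (-0.45 to 0.16, adjusted p = 0.433) with RNY1+/+ EVFx and of -0.43 (-0.77 to -0.09, adjusted p = 0.0503) with RNY1-/- ProteinFx did not pass. The last passed without PBS replicate 3 (-0.44, adjusted p = 0.0392) and without RNY1-/- ProteinFx replicate 2 (-0.52, adjusted p = 0.0452), with all 20 libraries in 1 fit (-0.42, adjusted p = 0.0152) and with total counts as the scaling (-0.49, adjusted p = 0.0371). It also passed with the replicate number as a block (-0.43, adjusted p = 0.0143). In 13 of 19 alternatives it kept its sign without passing, and in 1 the sign changed, at 0.01, with adjusted p up to 0.952. Irf3 had the highest transcript GC content of the members, 56.7%, and once GC and length trends were removed neither called decrease passed, at -0.19 (adjusted p = 0.395) and -0.26 (adjusted p = 0.242). Across genes the log2 fold changes of these comparisons followed transcript GC content with Spearman's rho of -0.42 and -0.46. For RNY1-/- ProteinFx against PBS rho was -0.495. The part of GC content in the decreases was not otherwise tested. Ddt (r = 0.88) and Mrpl34, of the mitochondrial ribosome (r = 0.87), were most like Irf3.

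Irf5 (ENSMUSG00000029771, chr6:29526625-29541871, plus strand), which acts downstream of Toll-like receptors, did not pass against PBS in any group with the settings used throughout. Its levels were 203, 193, 135 and 157 CPM in PBS, 224, 198, 156 and 206 in RNY1+/+ EVFx, 162, 176, 129 and 125 in RNY1-/- EVFx, 135, 153, 143 and 132 in RNY1+/+ ProteinFx and 165, 155, 103 and 112 in RNY1-/- ProteinFx. Each treated group overlapped PBS. The log2 fold changes ran from 0.37 (0.03 to 0.70, adjusted p = 0.0701) with RNY1+/+ EVFx to -0.30 (-0.69 to 0.09, adjusted p = 0.191) with RNY1-/- ProteinFx. Single libraries moved the calls: Irf5 passed with RNY1+/+ EVFx without PBS replicate 1 (0.45, adjusted p = 0.0432) or without RNY1+/+ EVFx replicate 3 (0.46, adjusted p = 0.0351), and with RNY1-/- ProteinFx without PBS replicate 3 (-0.41, adjusted p = 0.0481). With GC and length trends removed Irf5 passed as higher with RNY1+/+ EVFx (0.34), RNY1-/- EVFx (0.40) and RNY1+/+ ProteinFx (0.28). With the replicate number as a block it passed as higher with RNY1+/+ EVFx (0.37, adjusted p = 0.018) and as lower with RNY1-/- ProteinFx (-0.31, adjusted p = 0.00489). Adprh (r = 0.93) and the bromodomain gene Brd2 (r = 0.92) were most like Irf5.

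Irf8 (ENSMUSG00000041515, chr8:120736358-120756694, plus strand), a PU.1 partner that directs monocyte and dendritic cell development, was lower than PBS in all 4 comparisons. PBS libraries were at 313, 322, 184 and 258 CPM. RNY1+/+ EVFx gave 114, 128, 98.7 and 146 CPM, RNY1-/- EVFx 93.5, 99.6, 79.8 and 78.1 CPM, and RNY1+/+ ProteinFx 114, 112, 112 and 109 CPM, all below the PBS range. RNY1-/- ProteinFx gave 192, 186, 93.2 and 111 CPM, with replicates 1 and 2 inside it. The log2 fold change of Irf8 was -0.97 with RNY1+/+ EVFx (SE 0.18, adjusted p = 0.0011), -1.38 with RNY1-/- EVFx (SE 0.17, adjusted p = 4.98e-05), -1.099 with RNY1+/+ ProteinFx (SE 0.16, adjusted p = 0.00017) and -0.83 with RNY1-/- ProteinFx (SE 0.24, adjusted p = 0.0235). The last call was lost in 4 of 8 fits that left out a library, at -0.75 (adjusted p = 0.0675) without PBS replicate 1, -0.75 (0.0637) without PBS replicate 2, -0.67 (0.0573) without RNY1-/- ProteinFx replicate 3 and -0.73 (0.0757) without replicate 4, and with replicates 1 and 2 alone it was -0.49 (adjusted p = 0.183). In these bulk libraries fewer cells of a type and less RNA per cell cannot be told apart. The 7 neutrophil markers summed to 281 to 333 CPM in PBS, 143 to 209 in RNY1+/+ EVFx, 184 to 265 in RNY1-/- EVFx, 198 to 323 in RNY1+/+ ProteinFx and 239 to 354 in RNY1-/- ProteinFx, with Ly6g and Mpo at or under 3 counts in every library, and their part in the Irf8 change was not tested. Of 6 dendritic cell markers, Flt3, Zbtb46, Xcr1 and Clec9a were at or under 3 counts in every library, Siglech reached 4 counts and Ccr9 reached 5, and Ccr9 averaged 0.24 CPM in PBS and 0.84 and 0.86 CPM in RNY1+/+ and RNY1-/- ProteinFx. Ypel3 and the ribosomal protein gene Rps29 were most like Irf8 (r = 0.97 for both). The gene Gm20388 overlaps Irf8 on the same strand.

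Irf4 (ENSMUSG00000021356, chr13:30749226-30766976, plus strand), known in lymphocytes and in alternative macrophage activation, was barely detected, with 29 counts over the 20 libraries. PBS libraries held 3, 4, 4 and 4 counts, RNY1+/+ EVFx 0, 1, 0 and 1, RNY1-/- EVFx 0, 1, 0 and 0, RNY1+/+ ProteinFx 1 in each, and RNY1-/- ProteinFx 2, 2, 2 and 1. Only 3 libraries, all PBS, exceeded 3 counts, so no fold change was given, and a difference was not measurable at this depth.

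The next comparisons asked whether deleting RNY1 in the fluid donors changes what a fraction does. In EVFx 6 of 7 members passed between RNY1-/- and RNY1+/+, where 52.1% of all genes did. Irf2 was higher (25.5% of all genes) and Irf1, Irf3, Irf5, Irf8 and Irf9 were lower (26.6%). None was a DEG. Irf1 fell by 0.52 on the log2 scale (SE 0.14, adjusted p = 0.00776), from a mean of 98.7 ± 12.2 to 65.1 ± 15.4 CPM (SD, n = 4), with no overlap. Irf2 rose by 0.40 (SE 0.09, adjusted p = 0.00211), from 61.0 ± 6.48 to 76.8 ± 6.37 CPM, without overlap as well. Irf3 fell by 0.47 (SE 0.15, adjusted p = 0.0225), Irf8 by 0.40 (SE 0.11, adjusted p = 0.00969), Irf5 by 0.34 (SE 0.12, adjusted p = 0.0323) and Irf9 by 0.28 (SE 0.08, adjusted p = 0.0149), and Irf5 and Irf8 overlapped between genotypes. Irf7 stood at -0.34 (-0.72 to 0.03, adjusted p = 0.112), and passed without RNY1+/+ EVFx replicate 3 (-0.48, adjusted p = 0.0241).

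Transcript GC content moved with this comparison. Spearman's rho between GC content and the log2 fold change was -0.66 across the 10020 genes with a known GC content. Irf2, which was higher, has the lowest GC content of the tested members, 46.4%, and the 5 that were lower lie between 50.4% (Irf9) and 56.7% (Irf3), where the median gene is at 48.6%. Irf7, which was not called, is at 55.4%. GC content is that of the longest transcript of a gene, while the counts are from transcript ends. Its part in these differences was not otherwise tested. With GC and length trends removed from each library 1 of the 7 members passed, Irf2 at 0.27, while Irf1 was at -0.26 (adjusted p = 0.125), Irf8 at -0.22 (adjusted p = 0.075), Irf9 at -0.20 (adjusted p = 0.0558), Irf3 at -0.03 and Irf5 at 0.06. With all 20 libraries in 1 fit 3 passed. Single libraries ended the Irf3 call in 3 of 8 fits (without RNY1+/+ EVFx replicate 4 or RNY1-/- EVFx replicate 2 or 4, at -0.39 to -0.42) and the Irf5 call in 5 of 8 (without RNY1+/+ EVFx replicate 1, 2 or 4 or RNY1-/- EVFx replicate 3 or 4, at -0.28 to -0.35).

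In ProteinFx edgeR called 0 of 7 members between RNY1-/- and RNY1+/+, where 5.57% of all genes passed. DESeq2 called 0 as well, and 1 member, Irf7, had an unadjusted p under 0.05. With GC and length trends removed Irf7 was called, lower at -0.33 (adjusted p = 0.0245). The 95% intervals are before adjustment and rest on the spread between these libraries, which may be technical. Irf7 was at -0.29 (-0.57 to -0.02, adjusted p = 0.22), Irf5 at -0.16 (-0.44 to 0.13), Irf9 at -0.05 (-0.37 to 0.27), Irf2 at 0.06 (-0.17 to 0.29), Irf1 at 0.27 (-0.09 to 0.63), Irf8 at 0.30 (-0.09 to 0.69) and Irf3 at 0.32 (-0.04 to 0.67). The result differed between the pairs of RNY1-/- ProteinFx libraries. With replicates 1 and 2 alone Irf1 was higher at 0.52 (adjusted p = 0.00642) and Irf8 at 0.62 (adjusted p = 0.000315), whereas with replicates 3 and 4 alone Irf7 was lower at -0.53 (adjusted p = 0.00414) and Irf5 at -0.42 (adjusted p = 0.025). Irf1 and Irf8 were then at -0.06 and -0.16.

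**Figure D4:**
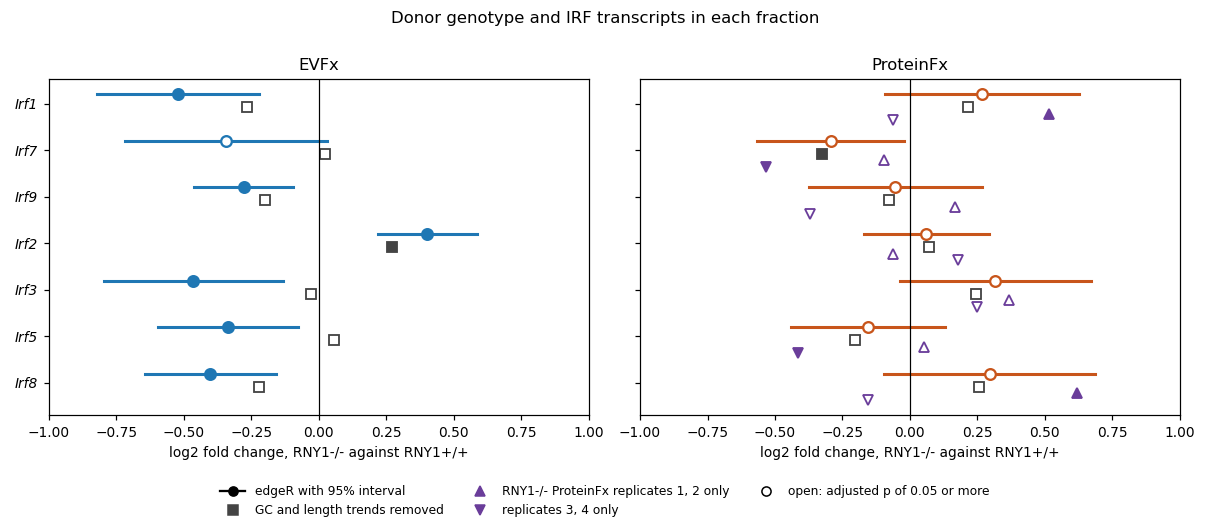
Log2 fold change of the 7 tested IRF genes between RNY1-/- and RNY1+/+ fluid, for EVFx (left) and ProteinFx (right): circles with 95% intervals for edgeR, squares with GC and length trends removed, triangles with only replicates 1 and 2 (up) or 3 and 4 (down) of RNY1-/- ProteinFx, and filled marks for an adjusted p under 0.05. In EVFx 6 circles are filled but 1 square is, and in ProteinFx the triangles of Irf1 and Irf8 lie on both sides of 0.

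Whether the genotype difference was itself different between fractions was tested with an interaction term (RNY1-/- against RNY1+/+ in ProteinFx, minus the same in EVFx). Irf1, Irf3 and Irf8 passed, 3 of 7 against 33.0% of all genes, with differences of 0.79 (SE 0.24, adjusted p = 0.0189), 0.78 (SE 0.21, adjusted p = 0.0127) and 0.70 (SE 0.23, adjusted p = 0.0282) on the log2 scale. Irf2 was at -0.34 (adjusted p = 0.0573), and it passed without RNY1+/+ EVFx replicate 2, RNY1+/+ ProteinFx replicate 3, or RNY1-/- ProteinFx replicate 3 or 4, at -0.37 to -0.41. The Irf8 call was lost without RNY1+/+ EVFx replicate 4 (0.60), RNY1-/- EVFx replicate 4 (0.68), or RNY1-/- ProteinFx replicate 1 (0.57) or 2 (0.59). Log2 differences followed GC content here too, with Spearman's rho of 0.59, and no member passed with GC and length trends removed. With only replicates 3 and 4 of RNY1-/- ProteinFx none passed, and with only replicates 1 and 2 there were 5.

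The fractions were also compared within a donor genotype. The doses of EVFx and ProteinFx were set in different units, so they are not matched. For RNY1+/+ fluid 4 of 7 members passed between ProteinFx and EVFx, against 63.3% of all genes. Irf2 was a DEG, 1.06 higher on the log2 scale in ProteinFx (SE 0.09, adjusted p = 2.53e-07). Irf3 was lower by 0.57 (SE 0.15, adjusted p = 0.00384), Irf5 by 0.48 (SE 0.10, adjusted p = 0.000753) and Irf9 by 0.32 (SE 0.09, adjusted p = 0.00576). With GC and length trends removed Irf3 (-0.09) and Irf5 (-0.05) no longer passed, and Irf7 did, higher at 0.54 (adjusted p = 0.000618). For RNY1-/- fluid 3 of 7 passed, against 29.2% of all genes, with Irf2 higher at 0.71 (SE 0.10, adjusted p = 0.000223), Irf1 at 0.62 (SE 0.19, adjusted p = 0.0291) and Irf8 at 0.57 (SE 0.19, adjusted p = 0.0391). With the replicate number as a block, which paired the libraries of this comparison, Irf5 also passed, lower at -0.32 (adjusted p = 0.0186). Without the block the Irf1 call was lost in 4 of 8 fits that left out a library (RNY1-/- EVFx replicate 3 or 4, RNY1-/- ProteinFx replicate 1 or 2, at 0.48 to 0.59) and the Irf8 call in 6 of 8 (any RNY1-/- EVFx replicate, or RNY1-/- ProteinFx replicate 1 or 2, at 0.43 to 0.62). With only replicates 3 and 4 of RNY1-/- ProteinFx, Irf1 was at 0.29 (adjusted p = 0.259) and Irf8 at 0.12 (adjusted p = 0.481), while Irf5 (-0.57, adjusted p = 0.00748) and Irf9 (-0.42, adjusted p = 0.0188) passed as lower. The higher level of Irf2 in ProteinFx passed in every alternative for both donor genotypes.

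In order of mean level, Irf2 ran from RNY1-/- ProteinFx (141 ± 8.75 CPM, SD, n = 4) through RNY1+/+ ProteinFx (127 ± 9.74), PBS (81.0 ± 12.3) and RNY1-/- EVFx (76.8 ± 6.37) to RNY1+/+ EVFx (61.0 ± 6.48), with overlap between the ProteinFx groups and between PBS and RNY1-/- EVFx. Irf7 ran from RNY1+/+ ProteinFx (360 ± 7.49) through RNY1+/+ EVFx (327 ± 61.7), RNY1-/- ProteinFx (313 ± 66.6) and RNY1-/- EVFx (246 ± 66.8) to PBS (71.8 ± 27.4), and only the step to PBS was free of overlap. Irf1 had the order RNY1-/- ProteinFx (112 ± 32.0), RNY1+/+ EVFx (98.7 ± 12.2), RNY1+/+ ProteinFx (88.2 ± 12.4), RNY1-/- EVFx (65.1 ± 15.4) and PBS (35.5 ± 7.25), again with a gap to PBS alone. Irf8 began with PBS (269 ± 63.2) and ended with RNY1-/- EVFx (87.8 ± 10.5), whose libraries were all below those of the next group, RNY1+/+ ProteinFx (112 ± 1.88).

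The genes that work with the IRFs were taken from 5 lists, which were written with earlier results of these data known. Among 16 known IRF target genes tested, 15 were higher and 1, Chil3, lower (-0.54, adjusted p = 0.0444) with RNY1+/+ EVFx against PBS, 15 higher with RNY1-/- EVFx and 16 of 16 with RNY1+/+ ProteinFx. With RNY1-/- ProteinFx 15 of 15 tested were higher. Among all genes 21.7%, 27.7%, 25.9% and 16.7% were higher in these comparisons and 22.8%, 30.7%, 29.3% and 19% lower, which is the background for this and the other lists. The targets' median log2 fold changes were 4.30, 3.98, 4.35 and 3.18, where the median over all genes was -0.03 in each comparison. With RNY1+/+ EVFx the guanylate-binding protein gene Gbp2 was at 5.22 (SE 0.19, adjusted p = 1.03e-08) and the chemokine gene Cxcl10 at 5.15 (SE 0.45, adjusted p = 4.25e-06). Arginase, Arg1, which marks alternative activation, was at 0.29 CPM in RNY1+/+ EVFx and 0.31 CPM in RNY1-/- EVFx, but at 140 and 188 CPM in RNY1+/+ and RNY1-/- ProteinFx. Il12b, the interleukin-12 subunit p40, went the other way between the RNY1+/+ fractions, at 21.4 CPM in EVFx and 0.65 CPM in ProteinFx, and averaged 0.11 CPM in PBS, too low for a fold change against PBS to be read.

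Between donor genotypes in ProteinFx, where 0 of 7 IRF genes were called, 12 of the 16 target genes tested were lower in RNY1-/-, against 3.37% of all genes, with a median of -0.78 beside 0.02 for all genes. Cxcl10 fell by 2.36 on the log2 scale (SE 0.25, adjusted p = 0.000195), from a mean of 459 to 95.7 CPM, Rsad2 by 1.39 (SE 0.11, adjusted p = 8.49e-05), Tnf by 1.35 (SE 0.22, adjusted p = 0.00313) and the antiviral GTPase gene Mx1 by 1.26 (SE 0.12, adjusted p = 0.000127). Arg1 (0.34), Chil3 (0.21), Psmb9 (0.08) and Tap1 (-0.25) did not pass. The target calls were not checked with GC and length trends removed or within the pairs of RNY1-/- ProteinFx libraries. Since the list was written with earlier results of these data known, its share of lower genes is a description and not an independent test. In EVFx, where 25.5% of all genes were higher and 26.6% lower, the same contrast called 1 target of 16 higher, Ifit1 at 0.69 (adjusted p = 0.004), and 2 lower, Isg15 at -0.63 (adjusted p = 0.00614) and Tnf at -1.22 (adjusted p = 0.000199).

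Of the interferon and receptor relay, 9 of 13 genes were expressed enough to be tested, and the interferon genes Ifnb1, Ifna2, Ifna4 and Ifna5 were not. Against PBS 7, 7, 6 and 5 of the 9 were higher with RNY1+/+ EVFx, RNY1-/- EVFx, RNY1+/+ ProteinFx and RNY1-/- ProteinFx. In the same order 1, 0, 0 and 0 were lower, the 1 being Ifngr1 (-0.53, adjusted p = 0.00102). Stat2, which partners Irf9 in ISGF3, was at 2.23, 1.93, 2.36 and 2.03 on the log2 scale, beside 0.88, 0.59, 0.55 and 0.47 for Irf9. The kinase gene Jak2 was at 2.40, 2.38, 2.65 and 2.096. Of 15 adaptors and kinases that activate IRFs, 9, 9, 8 and 5 were higher and 1, 2, 3 and 1 lower in the same order. Tank and Azi2, scaffolds of the TBK1 complex, were DEGs in all 4 (1.14, 1.94, 1.86 and 1.41 for Tank, 1.16, 1.42, 1.70 and 1.35 for Azi2). Slc15a4, a transporter needed for endosomal Irf5 activation, was lower at -1.04 with RNY1-/- EVFx, -1.28 with RNY1+/+ ProteinFx and -1.35 with RNY1-/- ProteinFx. Between donor genotypes in ProteinFx 0 of the 9 relay genes were higher and 2 were lower in RNY1-/-, against 3.37% of all genes lower. These were Ifnar1 (-0.47, adjusted p = 0.0167) and Jak2 (-0.54, adjusted p = 0.0189).

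Among 8 tested DNA-binding partners 4, 3, 3 and 2 were higher and 3, 3, 1 and 0 lower. Batf, an AP-1 factor that pairs with Irf4 and Irf8, was at 3.75 with RNY1+/+ EVFx, 3.32 with RNY1-/- EVFx, 2.68 with RNY1+/+ ProteinFx and 1.52 with RNY1-/- ProteinFx, from 4.57 CPM in PBS, and between donor genotypes in ProteinFx it fell by 1.14 (SE 0.15, adjusted p = 0.000697). Of 9 repressors and turnover factors 5, 5, 4 and 4 were higher and 0, 2, 3 and 3 lower. Usp18, which restrains interferon receptor signalling, was at 3.13, 2.85, 3.56 and 2.45 against PBS, and fell by 1.09 (SE 0.13, adjusted p = 0.000354) between RNY1-/- and RNY1+/+ ProteinFx. Sting1, the adaptor downstream of cytosolic DNA sensing, moved the other way in that contrast and was the 1 adaptor called, higher at 1.04 (SE 0.25, adjusted p = 0.028). Its mean went from 8.78 ± 2.59 to 18.3 ± 6.53 CPM (SD, n = 4).

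**Figure D5:**
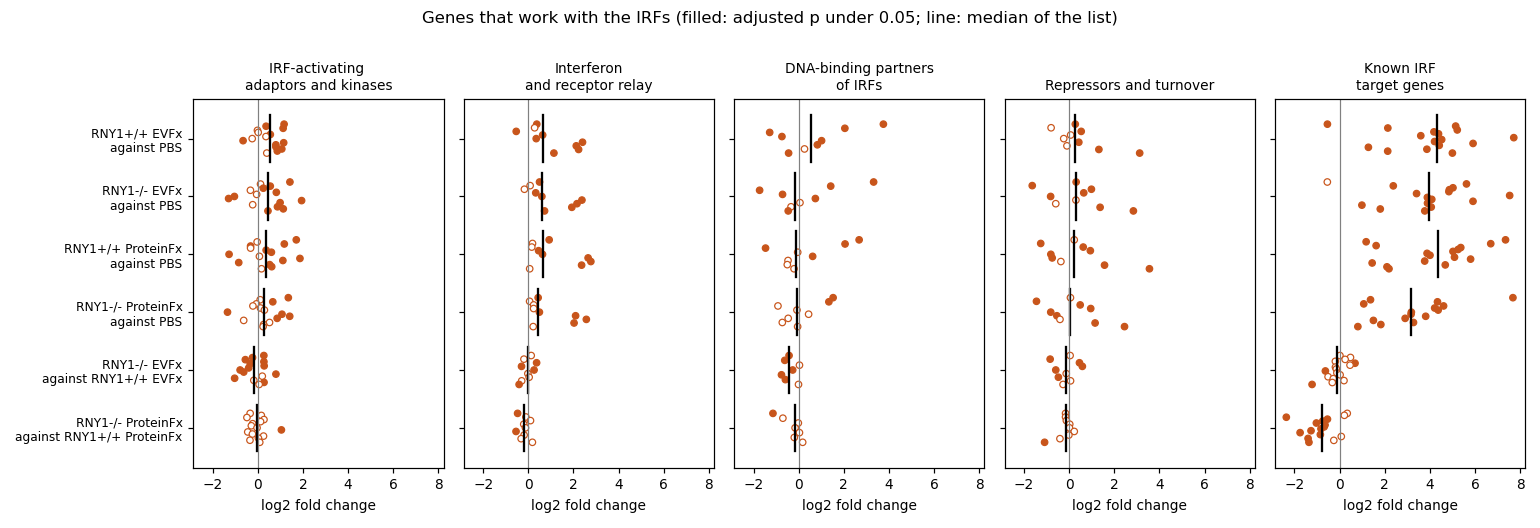
Log2 fold changes of the genes in 5 lists (panels) in 6 comparisons (rows), 1 point a gene, filled for an adjusted p under 0.05, with the median of the list as a line. The target genes lie far above 0 against PBS, with medians of 3.18 to 4.35, and below 0 between donor genotypes in ProteinFx, with a median of -0.78.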

How the data were processed

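RNA of BMDMs was sequenced as 20 3′-end poly(A) libraries with molecular identifiers. Per the submitters' notes and the study's methods, the authors trimmed reads with fastp 0.24.0, aligned them to GRCm39 with STAR 2.7.11, collapsed identifiers and counted exons and 3′UTRs by strand with featureCounts (Subread 2.1.1), splitting multimapped reads. The deposited file holds estimated counts with fractional values, and CPM that the authors scaled to library totals; every column of both was matched to a sample. CPM was used for levels, and counts for tests, rounded to whole numbers. GC content, transcript length and gene positions came from GENCODE M21 on GRCm38, so no coordinate here is in the authors' build.

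edgeR 4.0.16 was fitted as quasi-likelihood models on the libraries of each comparison, with TMM scaling and Benjamini-Hochberg adjustment over all genes tested. Genes entered a fit if they passed filterByExpr and averaged 3 CPM or more in the samples compared. Called genes had an adjusted p under 0.05, DEGs also a log2 fold change above 1 in size. Scripts were tested on simulated data. Alternatives were DESeq2 1.42.0, other scalings and filters, the replicate block, leaving out libraries, all libraries in 1 fit, and removal of GC and length trends. They were read for the members only, so calls of list genes were not checked with them. Replicate numbers are in the titles. Same-numbered libraries deviated together in all 4 pairs in RNY1-/- EVFx against PBS (r = 0.13 to 0.38) and in RNY1-/- ProteinFx against RNY1-/- EVFx (r = 0.22 to 0.40), which were read as paired from the data. Other comparisons were not read as paired. In RNY1-/- ProteinFx against PBS, however, r was 0.51, 0.62 and 0.64 for replicates 1, 2 and 3, and 0.018 for replicate 4. No replicates agreed within sampling noise (lowest chi-square per gene 2.30).

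Named list genes were at most 4 DEGs per list and comparison, those with the largest change among genes of at least 10 CPM on average, and the patterns most like each member were taken as the 2 highest Pearson's r among 7550 genes. List genes given outside that rule, such as targets that did not pass, were chosen after their values were seen. The members, lists and tests were chosen with earlier results of these data known. Counts are from tags at transcript ends, so levels were not compared between genes. Protein sequences were not used here. Some genes of the lists are not reported here.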

Additional observations from a re-analysis of the deposited data

Results flagged for a closer look

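In groups of 4 libraries, the gap between an extreme library and its nearest neighbour was compared with the range of the group. Of 40 combinations of gene and group 2 exceeded Dixon's critical value, which is set at 1 in 20. The combinations share libraries, so they are not independent. Irf1 in PBS replicate 3 was at 24.7 CPM, below the other PBS libraries at 38.1 to 40.6 CPM. Below the critical value, this library was also the extreme PBS library for Irf2, Irf5, Irf7, Irf8 and Irf9, but not for Irf3. Its chi-square per gene was 31.5, 34.7 and 16.8 against PBS replicates 1, 2 and 4, which differed from each other by 2.30 to 10.4. All 4 comparisons against PBS share this library, and fits without it are among those that left out a library. Irf4 in RNY1-/- EVFx replicate 2 was at 0.149 CPM, which is 1 count where the other libraries had 0. Irf1, Irf3 and Irf8 had genotype differences that differed between the fractions by the interaction term, at 0.79, 0.78 and 0.70 on the log2 scale (edgeR), and the dependence of these on GC content and on the pairs of RNY1-/- ProteinFx libraries is given with them.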

How the results depend on the processing

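Over the 8 comparisons and the interaction, 19 of 35 called changes of single members passed in every alternative that gave a value. Signs of 17 uncalled results changed in at least 1 alternative. Irf5 turned in direction with a call on either side: with GC and length trends removed it was at 0.28 in RNY1+/+ ProteinFx against PBS and at 0.0578 in RNY1-/- against RNY1+/+ EVFx (0.28 and 0.0567 with the replicate block added). Counts of members called moved by over 1.5 times in these cases. In RNY1-/- ProteinFx against PBS the replicate block gave 7, adding Irf3 (-0.43, adjusted p = 0.0143), Irf5 (-0.31, 0.00489) and Irf9 (0.46, 0.00174). In RNY1-/- against RNY1+/+ EVFx all 20 libraries in 1 fit gave 3 and the trend removal 1, or 4 with the block. In RNY1-/- against RNY1+/+ ProteinFx the trend removal gave 1, and replicates 1 and 2 or replicates 3 and 4 alone gave 2 each. The interaction gave 0 with the trends removed (2 with the block), 0 with replicates 3 and 4 alone and 5 with replicates 1 and 2 alone. The causes were not tested. Leaving out each library gave 4 to 5 members called in RNY1+/+ EVFx against PBS, 5 to 6 in RNY1-/- EVFx against PBS, 6 in RNY1+/+ ProteinFx against PBS, 3 to 6 in RNY1-/- ProteinFx against PBS, 4 to 7 in RNY1-/- against RNY1+/+ EVFx, 0 in RNY1-/- against RNY1+/+ ProteinFx, 4 in RNY1+/+ ProteinFx against RNY1+/+ EVFx, 1 to 3 in RNY1-/- ProteinFx against RNY1-/- EVFx, and 2 to 4 for the interaction. In the comparisons not read as paired, the replicate block gave 5 against 4 called in RNY1+/+ EVFx against PBS (Irf5 added, 0.37, adjusted p = 0.018), 7 against 6 between genotypes in EVFx (Irf7 added, -0.36, adjusted p = 0.00141), and the same counts elsewhere apart from the 7 above. In the paired comparisons it changed no call beyond the one given. With total counts in place of TMM the median of all genes against PBS was -0.21 for RNY1+/+ EVFx and -0.27 for RNY1-/- EVFx. It was -0.20 for RNY1+/+ ProteinFx and -0.10 for RNY1-/- ProteinFx, where TMM gave -0.03 in each of the 4. The median was 0.11 between genotypes in ProteinFx and 0.19 between the RNY1-/- fractions, where TMM gave 0.02 in both. In the interaction it was 0.17, beside 0.0001 with TMM. Without a filter Irf4 entered the fits at 0 to 4 counts, too few to read.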
